A study of Homo sapiens with 8 samples.

Results

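Broad acetylated domains were examined in A549 cells, a lung adenocarcinoma line in which mutated KEAP1 leaves the transcription factor NRF2 constantly active. The domains are stretches of the genome of 10 kb or more covered by peaks of histone H3 acetylated at lysine 27 (H3K27ac), and they were selected on the peak calls themselves. Peaks of all 6 H3K27ac ChIP-seq libraries were merged wherever they overlapped by at least 1 bp. Of the 49186 merged regions, 16845 were called in all 6 libraries, and 1928 of those were 10 kb or wider. The libraries came from 3 cultures given a control siRNA and 3 given an siRNA against NRF2, all collected 48 h after transfection and precipitated with the antibody MABI0309. The NRF2 siRNA was number 28 in replicate 1 and number 30 in replicates 2 and 3. All cultures were of this 1 cell line. Libraries with the same replicate number are treated as pairs where pairs are named, although the labels state no pairing. The width of a domain and its presence in every library are properties of the selection and not results. The libraries did not contribute equally to the width, since control siRNA replicate 3 alone had 94.2% of the domain bases under peaks and NRF2 siRNA replicate 1 had 48.9%. In 1163 domains (60.3%) the merged peaks of the controls and those of the NRF2 siRNA libraries each gave a stretch of 10 kb or more. In 481 domains (24.9%) only those of the controls did, in 220 (11.4%) only those of the NRF2 siRNA libraries, and in 64 neither did, a split made after the data had been seen.

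H3K27ac marks active promoters and active enhancers, and it is laid down by the acetyltransferases CBP and p300. Where many active elements lie side by side, their acetylation runs together into a broad domain, and in cancer cells such domains often lie at genes of cell identity and at oncogenes. NRF2, encoded by NFE2L2, binds the antioxidant response element together with a small MAF protein and activates genes of glutathione and thioredoxin metabolism, NADPH production, iron handling and detoxification. KEAP1 normally directs NRF2 to degradation, and BACH1 competes for the same elements as a repressor.

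Antioxidant response elements were looked for in the domains that hold the start of a canonical NRF2 target gene and in those with the largest falls in H3K27ac rank after NRF2 knockdown. Each of these 29 domains contained at least 1 match to the general element on either strand. Matches occurred at 0.411 per kb over all domains, so a stretch of 10 kb or more is likely to hold one, and this does not set the 29 apart. The match nearest to a coding start outside any untranslated region is shown for 8 of them, because they show the letters that these domains hold and whether a called peak lay over them. A peak over a match does not show that the signal there was unchanged. Each sequence is in the hg19 (GRCh37) build, 70 bases long and written 5′ to 3′ on the strand of the match, with the element in capitals.

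NQO1, chr16:69760880-69760949, minus strand: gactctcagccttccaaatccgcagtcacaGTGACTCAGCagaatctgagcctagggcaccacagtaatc
GCLC, chr6:53480822-53480891, minus strand: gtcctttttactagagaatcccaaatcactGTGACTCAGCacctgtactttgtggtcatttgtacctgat
TRIM16, chr17:15546294-15546363, plus strand: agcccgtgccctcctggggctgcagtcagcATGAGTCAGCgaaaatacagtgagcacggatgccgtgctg
AKR1C3, chr10:5115728-5115797, plus strand: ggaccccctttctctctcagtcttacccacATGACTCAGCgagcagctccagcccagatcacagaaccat
PGD, chr1:10458890-10458959, minus strand: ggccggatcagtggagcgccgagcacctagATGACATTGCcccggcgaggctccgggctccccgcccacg
HMOX1, chr22:35776537-35776606, plus strand: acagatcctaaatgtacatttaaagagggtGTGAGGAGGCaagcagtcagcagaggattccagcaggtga
EPHX1, chr1:226003440-226003509, plus strand: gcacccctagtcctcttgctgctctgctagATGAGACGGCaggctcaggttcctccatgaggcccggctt
FTH1, chr11:61733293-61733362, plus strand: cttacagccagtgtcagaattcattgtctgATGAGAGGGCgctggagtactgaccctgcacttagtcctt

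The elements of NQO1, GCLC, TRIM16 and AKR1C3 also contain a match to the AP-1 site TGANTCA. Among the 29 domains looked at, the chosen element overlapped an AP-1 site in these 4 only, and all 4 are shown. Their share of the sequences shown therefore reflects the choice of what to show. Over all domains, the combination was found in 4.72% of the 14206 element matches. Whether 4 of 29 differs from that share was not tested. The match of TRIM16 lay 50 bases and that of NQO1 343 bases upstream of a coding start, while the GCLC match lay 912 bases inside the gene, in an intron. The EPHX1 and FTH1 matches were also intronic, and both were under a peak in 3 of 3 control libraries and in 0 of 3 NRF2 siRNA libraries. The matches of NQO1, GCLC, TRIM16, PGD and HMOX1 stayed under a peak in all 6 libraries, and that of AKR1C3 in 3 control and 2 NRF2 siRNA libraries. Element matches were not denser in domains than elsewhere. They occurred at 0.411 per kb in domains and 0.428 per kb in all regions called in every library, and 11.2% and 11.6% of 300-base windows held one. The density was 0.441 per kb in the domains whose rank fell and 0.438 per kb in those that were shorter in every NRF2 siRNA library. A match is a description of the letters and does not show that NRF2 was bound.

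The domains made up 11.4% of the regions called in all 6 libraries but 37.9% of their bases, 34.6 of 91.4 Mb. Their median width was 14.3 kb, with an interquartile range of 11.7 to 19.6 kb, and 460 were 20 kb or wider, 79 were 40 kb or wider and 3 exceeded 100 kb. At the lower limit the domains of APOL1, near POU1F1 and near IGFBP3 spanned 10000, 10004 and 10012 bp, whereas regions in ABTB2, in MARK2 and near SLC39A11 of 9999, 9999 and 9991 bp were left out. The widest domain, of 130.6 kb, lay at PDE4D, a cyclic AMP phosphodiesterase, which also carried a second domain of 100.6 kb. A domain of 121.9 kb joined IGFBP4, an IGF-binding protein, with TNS4, an adhesion scaffold, and CCR7, a chemokine receptor. The other widest domains were at EDN1 (90.7 kb), which encodes endothelin 1, TNS3 (88.3 kb), another tensin, LIF (83.8 kb), a cytokine, CYP24A1 (83.3 kb), the vitamin D 24-hydroxylase, in MYO1E (82.8 kb), a class I myosin, at ITGB1 (81.6 kb), the integrin beta 1 subunit, and in AOPEP (80.3 kb), an aminopeptidase. Chromosomes 20, 19 and 17 carried the most domains per length, 1.14, 1.01 and 1.01 per Mb, and chromosomes X and 13 the fewest, 0.238 and 0.330 per Mb.

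A transcript start of a protein-coding gene lay in 636 domains (33.0%), compared with 41.8% of all regions called in every library and 25.2% of the regions of 5 to 10 kb. Promoter content followed width in both directions. Of the regions under 2 kb, 68.5% held a coding start, and the share was lowest at 5 to 10 kb and higher again at 10 to 20 kb (29.2%), 20 to 40 kb (40.4%) and 40 kb or more (67.1%). A wider region has more room for a start, so these shares are not corrected for width. Another 278 domains (14.4%) held only the start of a long noncoding RNA, compared with 6.74% of all regions, while 570 lay inside a coding gene without a start and 444 were intergenic. CpG dinucleotides occurred at 13.3 per kb in domains, 15.2 per kb in regions of 5 to 10 kb and 47.7 per kb in regions under 2 kb. In all, 693 of the 7759 coding genes with a start in a region called in every library had one in a domain. Most domains held at most 1 coding start, but 5 domains over the histone gene clusters of chromosome 6 held 5 or more, and the largest of these held 9.

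**Figure D1:**
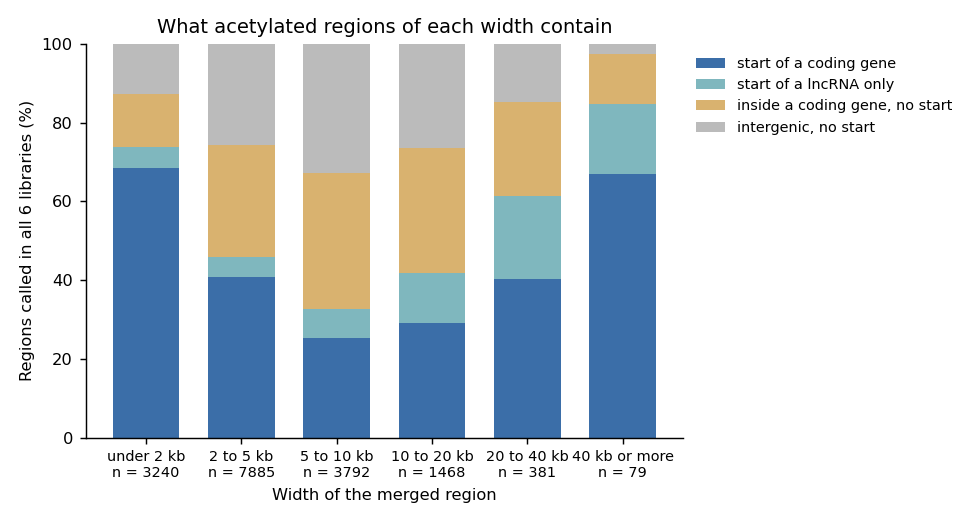
Content of acetylated regions by width. Each bar gives the percentage of the regions of 1 width class (n below it) that hold a coding start, only a lncRNA start, or no start inside or outside a coding gene. The coding share is 68.5% under 2 kb, 25.2% at 5 to 10 kb and 67.1% at 40 kb or more.

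The signal within the domains was ranked in each library, because the fold enrichment of a peak cannot be compared between lists of different depth. Each domain was given the percentile of its highest peak fold among all single peaks of the same library. A domain with several peaks therefore enters with its highest one, which favours a high percentile. The median domain percentile was between 90.1 and 93.8 in the 6 libraries. Wider domains tended to rank higher (Spearman rho 0.353 across domains, which share libraries and are not replicates, and which have more chances of a high peak the wider they are). The highest mean percentiles belonged to domains near OR5AK2 (100), near MTAP (99.96), near TMEM17 (99.94), in ALDH1A1 (99.94), in VMP1 and TUBD1 (99.93) and in KCNK3 (99.93). ALDH1A1 is a retinaldehyde dehydrogenase, and the VMP1 domain also contains the start of the microRNA gene MIR21. RPH3AL, UNC93B1 with ALDH3B1, KRT8 and near PARD6B followed with mean percentiles of 99.88 to 99.92. A percentile near 100 says nothing on copy number, which was not tested.

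The length of a domain under peaks and the number of peaks it was called in differed strongly between libraries of the same group. In replicates 1, 2 and 3, peaks covered on average 11.7, 14.1 and 16.9 kb of a domain in the control libraries and 8.77, 13.3 and 15.7 kb in the NRF2 siRNA libraries. The group means were 14.2 ± 2.58 kb and 12.6 ± 3.53 kb (SD, n = 3 each), and the ranges overlapped. Within the pairs, the NRF2 siRNA library differed from its control by −2.97, −0.833 and −1.17 kb per domain. The difference of the means was −0.9995 kb with pairs 2 and 3 only, and it was 0.257 kb when NRF2 siRNA replicate 1 was left out and its control was kept. A domain consisted on average of 1.95, 1.84 and 1.25 peaks in the control libraries and 2.198, 1.86 and 1.45 in the NRF2 siRNA libraries. The mean number of peaks was also higher with NRF2 siRNA in each pair, by 0.250, 0.0161 and 0.197, which is less than the spread between replicates. The peak lists held 27941, 34747 and 41571 peaks for the controls and 23885, 34986 and 39108 for NRF2 siRNA, and with lists cut to equal length the mean differences were −1.63 kb and 0.183 peaks. Peak names in replicates 2 and 3 begin with an identifier that is missing in replicate 1. Since siRNA 28 was also used in replicate 1 alone, whatever sets these libraries apart and the siRNA cannot be told apart.

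**Figure D2:**
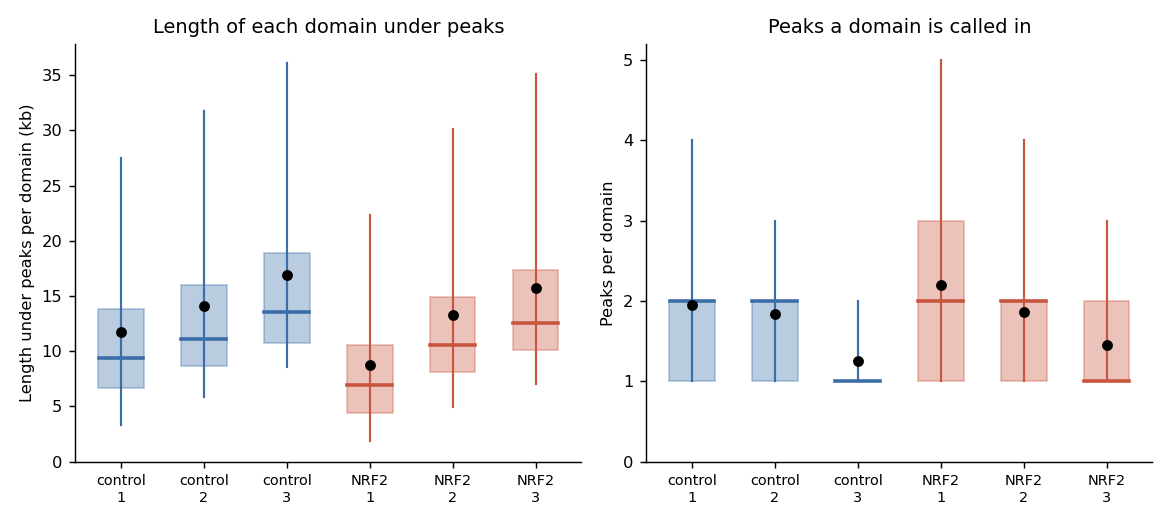
Covered length (left, kb) and number of peaks (right) per domain in each library, over 1928 domains. Boxes span the interquartile range, thick lines are medians, vertical lines run from the 5th to the 95th percentile and black dots are means. Mean covered length differs more between replicates (11.7 to 16.9 kb in the controls, 8.77 to 15.7 kb with NRF2 siRNA) than between the groups.

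The first comparison asked which domains lost or gained H3K27ac rank when NRF2 was depleted. In all, 30 domains fell, among them those of the NRF2 targets ALDH3A1 and GCLC, and 2 domains near FST rose. In a bulk culture, fewer cells with the mark and a weaker mark per cell cannot be told apart. The highest fold of each region was converted to a rank score within its library, in SD units of a normal distribution, and was compared with limma over the 32673 regions called in 3 or more libraries, with Benjamini-Hochberg adjustment. At an adjusted p under 0.05, 30 domains (1.56%) were lower and 2 (0.104%) were higher with NRF2 siRNA. Over all regions tested, 3.39% were lower and 2.01% were higher, and over the regions called in all 6 libraries 1.36% and 1.28%, so falls were not more frequent in domains than in the regions tested as a whole. The median score change of the domains was 0.00. With the replicate number as a block, 56 domains were lower and 18 higher. The counts depended on single libraries and ranged from 0 to 32 lower and 0 to 3 higher when 1 library was left out. No domain passed without control siRNA replicate 2, where 178 domains had an unadjusted p under 0.05, and 2 and 3 were lower without control siRNA replicate 3 and NRF2 siRNA replicate 2. With control siRNA replicate 1 or NRF2 siRNA replicate 3 left out, 11 and 9 were lower. With replicates 2 and 3 only, 35 were lower and 6 higher. Of the 30 lower domains, 22 reached 10 kb only through the controls, 6 through each group, 1 only through NRF2 siRNA and 1 through neither, and both higher domains reached it only through NRF2 siRNA. Most of these domains were therefore selected on the group in which they were long, and their number is no evidence on domains as a class.

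The largest fall at a coding start was at ALDH3A1, an aldehyde dehydrogenase induced by NRF2 (chr17:19645793-19662424). Its percentile was 100 in each control library and 92.7, 93.3 and 94.6 with NRF2 siRNA, a score change of −1.91 ± 0.20 (SE, adjusted p = 0.00628, limma). Every NRF2 siRNA library was below every control. PTGR1, a prostaglandin and leukotriene reductase (chr9:114359765-114370294), went from percentiles of 98.0, 98.0 and 98.9 to 46.2, 64.3 and 67.2, a score change of −1.78 ± 0.19 (adjusted p = 0.00628, limma). Both remained past the threshold in 5 of the 6 fits that left out 1 library, with the highest adjusted p at 0.0504 in each, compared with 3 of 6 for GCLC and for CPLX2. GCLC, the catalytic subunit of the enzyme that starts glutathione synthesis (chr6:53474610-53484799), fell by 1.37 on the score (adjusted p = 0.0134, limma), from percentiles of 99.8, 99.9 and 99.8 to 83.8, 94.9 and 97.3. CPLX2, a synaptic complexin, held the widest of these domains (chr5:175263563-175314964). Its percentiles were 98.8, 98.7 and 98.9 in the controls and 79.4, 80.6 and 79.4 with NRF2 siRNA, and its score fell by 1.37 (adjusted p = 0.0112, limma). The 2 groups were separate at each of these domains, of which only that of CPLX2 reached 10 kb in the NRF2 siRNA libraries as well.

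Other domains whose score fell hold no coding start. A domain inside EXOC6B, an exocyst gene, showed the largest fall of all (−2.39 ± 0.53, adjusted p = 0.0368, limma). Its percentiles were 99.6, 94.0 and 91.8 in the controls and 61.6, 7.49 and 14.5 with NRF2 siRNA, which is separate but widely spread. A domain inside ABCG2, a drug efflux transporter, fell by 1.58 (adjusted p = 0.00953, limma), from percentiles of 99.5, 99.2 and 99.5 to 59.5, 86.3 and 87.3. The domains near CPEB2, near ST8SIA4, near ANKRD55 and in CDK5RAP2 fell, with score changes of −1.64, −1.37, −1.30 and −1.28 (adjusted p between 0.0146 and 0.0381, limma). These 6 domains reached 10 kb only through the controls. The number of the 6 fits leaving out 1 library in which they passed was 4 for ABCG2, 3 for CPEB2, 2 for ST8SIA4, 1 each for EXOC6B and ANKRD55 and 0 for CDK5RAP2. Of the 30 domains, 9 held a coding start, 9 lay inside a gene, 9 were intergenic and 3 held only a lncRNA start, and 29 were also shorter in all 3 pairs, as were 46.4% of all domains. The coding starts outside this named set included those of ABCC2, EPHX1, the DNA glycosylase NEIL3 and the kinase SRC, the last 2 named after their values were seen.

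The 2 domains that rose lay on chromosome 5 upstream of FST, which encodes the activin antagonist follistatin. They lie 110695 and 53571 bp from its start, and neither holds a coding start. The first (chr5:52655201-52665761) had percentiles of 44.1, 67.8 and 55.5 in the controls and 86.4, 88.8 and 86.3 with NRF2 siRNA, a rise of 1.02 ± 0.23 (adjusted p = 0.0365, limma). Its covered length was 6.12, 6.03 and 5.47 kb in the controls and 9.95, 10.6 and 9.92 kb with NRF2 siRNA, and it was called in 2, 3 and 3 peaks in the controls and in 1 peak in each NRF2 siRNA library. The second (chr5:52710703-52722885) rose by 1.34 ± 0.21 (adjusted p = 0.0125, limma), from percentiles of 44.8, 55.3 and 54.9 to 91.1, 91.4 and 90.9. Its covered length was 2.23, 2.77 and 2.85 kb in the controls and 3.26, 6.84 and 12.2 kb with NRF2 siRNA, so it reached 10 kb only through NRF2 siRNA replicate 3. The first took its whole width from the peak of NRF2 siRNA replicate 2. When 1 library was left out, the first passed in 0 of 6 fits and the second in 3. The next rises, which did not pass the threshold, were in KYNU (1.07, adjusted p = 0.0854, limma) and near SOCS3 (0.88, adjusted p = 0.0584) and HNRNPA1L3 (0.88, adjusted p = 0.103). These 3 passed with the replicate block, with adjusted p values of 0.0147, 0.0303 and 0.0320.

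**Figure D3:**
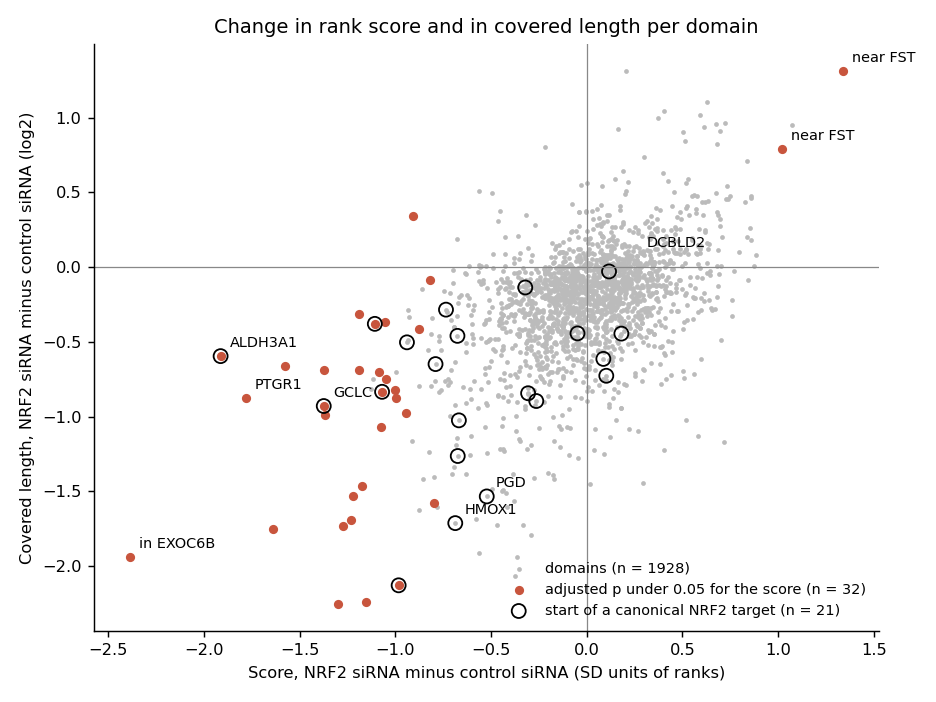
Change of each domain in rank score (horizontal, SD units) and in covered length (vertical, log2), NRF2 siRNA minus control siRNA, as fitted by limma over 3 libraries per group. Red points are the 32 domains past the threshold for the score, and open circles the 21 domains with the start of a canonical NRF2 target. ALDH3A1, PTGR1, GCLC and the domain in EXOC6B lie to the left, and the 2 domains near FST at the upper right.

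The second comparison asked which domains shrank. Covered length was compared with limma on the log2 scale over the 16845 regions called in all 6 libraries, and neither a domain nor any other region passed the threshold (0.0% called, smallest adjusted p 0.377, limma). At an unadjusted p under 0.05 there were 81 domains, 75 shorter and 6 longer, or 4.20% compared with 4.88% of all regions. With the replicate block, 263 domains had an unadjusted p under 0.05 and again none passed after adjustment. The median log2 change of the domains was −0.19, and that of all regions −0.14, and the median of the domains was −0.07 with pairs 2 and 3 only and 0.04 without NRF2 siRNA replicate 1 alone. The shortening of single domains is therefore given as values. In 172 domains (8.92%) the covered length in each NRF2 siRNA library was below that in each control library, compared with 7.65% of all regions called in all 6 libraries. The opposite, a longer cover in each NRF2 siRNA library, held for 14 domains (0.726%) and for 2.90% of all regions. The selection shaped these shares. Among the domains that reached 10 kb in both groups 5.25% were shorter and 0.602% longer, while among those that reached it only through the controls 22.2% were shorter and 0 longer, so the excess over all regions is not a result about domains. Percentiles were lower in each NRF2 siRNA library for 15.4% of the domains and higher for 8.3%, compared with 11.3% and 8.85% of all regions. Of the 172 domains shorter in each, 76 held a coding start, which is 11.9% of the domains with one, and 36, 39 and 21 fell in the gene-body, intergenic and lncRNA classes (6.32%, 8.78% and 7.55%). With pairs 2 and 3 only, 455 domains were shorter and 187 longer without overlap, and without NRF2 siRNA replicate 1 the numbers were 176 and 179.

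The clearest group among the shortened domains was that of the canonical NRF2 targets, a list of 30 genes. The list was chosen with results of these data known and is not independent evidence of a direction. Of its genes, 18 had a start in 21 domains, and 18 of those 21 domains were shorter in each NRF2 siRNA library than in each control, as were 8.92% of all domains. Of the 21, 11 reached 10 kb in both groups and 9 of these were shorter, compared with 5.25% of all domains of that kind. The other 10 reached it only through the controls, and 9 of them were shorter, compared with 22.2% of all domains of that kind. None was longer in each, and their median log2 change was −0.65, compared with −0.19 for all domains. Left-out libraries, equal list lengths and a stricter q-value gave 17 to 19 of 21. Their median ratio of mean covered length, NRF2 siRNA to control, was 0.658, compared with 0.895 over all domains, and it ranged from 0.305 to 0.982. The score fell past the threshold in 5 of the 21 (ALDH3A1, GCLC, ABCC2 and EPHX1 among them) and rose in 0, and its change was below 0 in 17. Over all domains 1.56% fell past it, and over all regions tested 3.39%. The count of 5 was 0 without control siRNA replicate 2, 1 without control siRNA replicate 3 or NRF2 siRNA replicate 2, 2 without control siRNA replicate 1 and 3 without NRF2 siRNA replicate 3, and it was 9 with the replicate block. The 4 that joined with the block were NQO1 (adjusted p = 0.0508 without and 0.0223 with it, limma), AKR1C2 (0.0657 and 0.0377), HMOX1 (0.0769 and 0.0456) and TXNRD1 (0.0833 and 0.0482).

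Some listed genes of glutathione and thioredoxin metabolism had domains over their promoters, while GCLM, GSR, TXN and SRXN1 had no start in a domain. The covered length at GCLC was 9.76, 8.99 and 10.0 kb in the controls and 3.69, 6.68 and 5.16 kb with NRF2 siRNA. SLC7A11, the cystine transporter that supplies glutathione synthesis, had a domain of 46.8 kb (chr4:139134538-139181330). It was covered over 43.0, 43.3 and 45.3 kb in the controls and 30.5, 37.3 and 41.0 kb with NRF2 siRNA, and its peaks numbered 2, 2 and 1 and then 4, 6 and 4. A domain with a start of TXNRD1, thioredoxin reductase 1 (chr12:104607350-104618734), was covered over 11.01, 10.4 and 10.8 kb in the controls and 4.26, 3.70 and 5.65 kb with NRF2 siRNA. A second domain, which holds another start of TXNRD1 and that of EID3 (chr12:104668628-104712271), was covered over 35.9, 38.9 and 39.8 kb in the controls. With NRF2 siRNA it was covered over 26.3, 40.3 and 39.4 kb, and the groups overlapped. Its percentiles did not, with 95.03, 93.7 and 94.5 and then 84.6, 89.2 and 91.6, but its score change of −0.32 did not pass (adjusted p = 0.373, limma).

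Genes of the pentose phosphate pathway, which makes NADPH, also carried domains, though TALDO1 of the same pathway had no start in one. PGD, 6-phosphogluconate dehydrogenase (chr1:10456107-10488872), was covered over 29.4, 30.5 and 32.8 kb in the controls and 5.68, 12.7 and 16.7 kb with NRF2 siRNA. Its peaks numbered 1, 2 and 1 in the controls and 4, 3 and 6 with NRF2 siRNA, so both the length and the number of pieces were separate between the groups. TKT, transketolase (chr3:53263886-53292401), was covered over 24.7, 25.96 and 28.5 kb and then 13.2, 22.7 and 24.4 kb. A neighbouring domain without a coding start (near TKT, chr3:53293457-53309655) went from 11.95, 12.2 and 16.2 kb to 2.97, 3.57 and 3.92 kb, a log2 change of −1.94 ± 0.26 (SE). That domain had the smallest unadjusted p for covered length among the domains named for it (0.00015, adjusted p = 0.377, limma).

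Detoxification and iron genes formed the largest group. HMOX1, heme oxygenase 1 (chr22:35759780-35783227), was covered over 19.5, 20.01 and 23.4 kb in the controls and 3.93, 7.78 and 8.46 kb with NRF2 siRNA, with 2, 2 and 1 peaks and then 3, 4 and 4. EPHX1, microsomal epoxide hydrolase (chr1:225997563-226009207), was covered over 8.50, 9.69 and 11.2 kb and then 0.640, 3.83 and 4.50 kb, and its score fell by 0.98 (adjusted p = 0.0325, limma). The lowest value of EPHX1 came from NRF2 siRNA replicate 1, but the other NRF2 siRNA libraries were also below every control. FTH1, the ferritin heavy chain (chr11:61727985-61745658), was covered over 14.9, 15.5 and 17.7 kb and then 5.65, 7.87 and 10.9 kb, in 1 peak in each control and 2 peaks in each NRF2 siRNA library. UGDH, which makes UDP-glucuronate (chr4:39496759-39532122), was covered over 21.8, 30.7 and 34.9 kb and then 11.8, 16.7 and 18.4 kb. At NQO1, a quinone reductase (chr16:69753603-69764331), covered length overlapped between the groups, with 7.58, 8.85 and 10.5 kb and then 4.50, 7.79 and 7.03 kb. Its percentiles did not, with 99.3, 99.1 and 99.4 in the controls and 95.1, 87.2 and 94.5 with NRF2 siRNA.

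The efflux transporters ABCC2 and ABCC3 differed from each other. At ABCC2 (chr10:101533344-101556319), covered length was 18.7, 20.7 and 22.98 kb and then 14.5, 16.1 and 17.3 kb, and the score fell by 1.11 (adjusted p = 0.0318, limma). At a first domain with a start of ABCC3 (chr17:48704568-48722281) it was 14.1, 14.8 and 17.5 kb and then 13.1, 15.2 and 17.3 kb, which overlap, and percentiles were 98.9 to 99.4 and then 99.3 to 99.5. A second domain with a start of ABCC3 (chr17:48729448-48751857) was covered over 14.98, 18.7 and 21.8 kb and then 8.67, 13.5 and 11.5 kb. AKR1B10, an aldo-keto reductase on chromosome 7, was covered over 15.6, 16.5 and 17.2 kb and then 10.3, 12.9 and 13.3 kb, while its percentiles were 85.3, 87.2 and 87.3 and then 86.2, 91.2 and 89.9, so length and rank did not move together there. TRIM16, an E3 ligase on chromosome 17, was covered over 13.2, 13.3 and 14.5 kb and then 7.58, 10.9 and 11.9 kb.

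The other gene lists held fewer shortened domains, and none of their domains passed the threshold for the score in either direction. BACH1, the repressor in the NRF2 circuit, was covered over 23.3, 20.7 and 23.3 kb in the controls and 13.6, 14.1 and 13.3 kb with NRF2 siRNA, in 1, 3 and 3 peaks and then 4 in each. Its percentiles went the other way, from 86.5, 67.2 and 78.3 to 86.6, 92.5 and 90.1, which are separate by a narrow margin, and its score change of 0.56 did not pass (adjusted p = 0.224, limma). NFE2L2 itself was covered over 12.9, 15.5 and 16.4 kb and then 8.56, 14.7 and 17.2 kb, which overlap. The siRNA acts on the messenger RNA, so this domain does not check the knockdown. CEBPB, a C/EBP factor, was covered over 10.2, 10.5 and 12.2 kb and then 6.58, 8.29 and 8.03 kb. Of the 7 domains at lung and foregut transcription factors, 2 were shorter in each NRF2 siRNA library, that of FOXA1 among them, and HNF4A, ELF3, EHF and KLF5 were among those that overlapped. FOXA1 was covered over 11.4, 11.2 and 11.4 kb and then 10.9, 10.8 and 10.8 kb. Of 7 domains at AP-1 and immediate early genes, the domain of MYC was shorter in each (12.4, 11.7 and 14.3 kb, then 8.11, 11.01 and 11.3 kb), and JUNB, JUND, FOSL2, MAFK, DUSP1 and IER3 overlapped.

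No domain was shorter in each NRF2 siRNA library among the 7 at keratins and junction genes, the 14 at adhesion and cytoskeleton genes, the 6 at signalling genes, the 11 at long noncoding RNAs and the 2 at the housekeeping genes GAPDH and EEF1A1. With 8.92% of all domains shorter in each, a count of 0 in lists this short does not set them apart. The epithelial genes KRT7, KRT8, KRT18 and CDH1 had a start in a domain, whereas the lung factor NKX2-1 had no start in a domain. The adhesion list had a median log2 change of 0.00. LAMA5, a laminin chain, was covered over 22.5, 22.02 and 23.8 kb and then 21.8, 23.8 and 23.9 kb, and a SMAD3 domain of 58.9 kb over 57.0, 58.1 and 58.8 kb and then 56.8, 58.7 and 58.6 kb. Of 30 genes from the study's longer list of NRF2 targets specific to NRF2-activated cancer, 3 had a start in a domain, and ZC3H12A and HJURP were shorter in each library while NEDD4 overlapped. HJURP, a centromere chaperone, was covered over 8.29, 11.2 and 14.6 kb and then 2.30, 6.63 and 4.99 kb. The study chose that list by RNA-seq of A549 and other lines, in part with the same NRF2 siRNAs. None of the 10 widest domains was shorter in each, and their ratios of mean covered length ran from 0.849 (EDN1) to 1.03 (ITGB1). The first PDE4D domain was covered over 104, 119 and 130 kb and then 77.1, 116 and 127 kb.

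**Figure D4:**
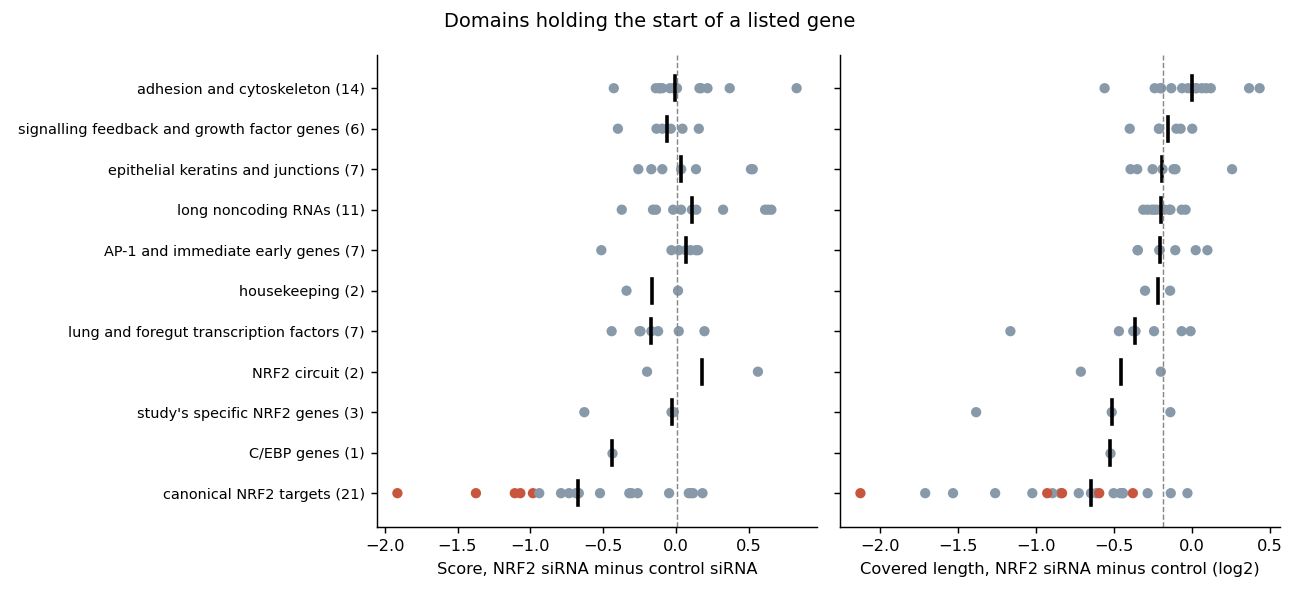
Score change (left, SD units) and log2 change in covered length (right), NRF2 siRNA minus control siRNA, of each domain that holds the start of a listed gene, with the number of domains in brackets. Red points passed the threshold for the score, black bars are list medians and dashed lines the median of all domains. The canonical NRF2 targets have medians of −0.67 and −0.65, and the adhesion list −0.01 and 0.00.

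The third comparison asked which domains broke up into more pieces. In 33 domains the number of peaks was higher in each NRF2 siRNA library than in each control, and in 8 it was lower, compared with 0.315% and 0.148% of all regions called in all 6 libraries. Narrow regions are mostly 1 peak and cannot break up as often, so these shares are not matched for width. The selection also shaped these counts. PGD, HMOX1, RAP1GAP, PECR with TMEM169, UGT1A6, UGT1A1 and the domain in GPAT3 reached 10 kb only through the controls. PHLDA3 and the domains in EGLN1 and ERGIC1 reached it only through NRF2 siRNA, while AKR1C2, SLC7A11 and DCBLD2 reached it in both groups. The counts are therefore no evidence on domains as a class. Of the 33, 25 were also shorter in each NRF2 siRNA library, 21 held a coding start and 8 held the start of a canonical NRF2 target. Of the 477 domains that formed 1 peak in every control library, 202 also formed 1 peak in every NRF2 siRNA library, and 22 formed 2 or more in each. The converse, 1 peak in every NRF2 siRNA library and 2 or more in every control, held for 5 domains. No share over all regions stands beside these counts. NRF2 siRNA replicate 1 had the most peaks per domain of all libraries, 2.198 on average, so the counts are again no evidence on domains as a class. Breaking up was sensitive to weak peaks at the edge of calling, since with q-values of at most 1e-05 there were 11 domains in more peaks and 11 in fewer. With pairs 2 and 3 only, the numbers were 104 and 72, and domains in more peaks numbered 84 or 64 when control siRNA replicate 1 or 2 was left out and 119 when NRF2 siRNA replicate 3 was. Without control siRNA replicate 3 or NRF2 siRNA replicate 1 the domains in fewer peaks numbered 54 and 47, and without NRF2 siRNA replicate 2 they numbered 32.

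AKR1C2, which lies in the aldo-keto reductase cluster of chromosome 10, gave the clearest case. The genes of this cluster are close copies of each other, and the authors removed reads of low mapping quality. Its domain (chr10:5030139-5069092) was 1 peak of 37.8, 38.3 and 39.0 kb in the controls and 7, 5 and 4 peaks that covered 15.03, 29.6 and 32.9 kb with NRF2 siRNA. Percentiles went from 93.5, 94.2 and 95.4 to 78.8, 78.4 and 74.6. The AKR1C3 promoter domain on one side (chr10:5107878-5125269) split from 1 peak into 2 in each library and was covered over 14.9, 15.8 and 17.4 kb and then 8.29, 9.85 and 14.0 kb, but its percentiles, 99.1, 99.0 and 99.0 and then 98.5, 99.6 and 99.0, overlapped. The domain near AKR1C1 had a mean covered length of 20.6 kb in the controls and 8.22 kb with NRF2 siRNA.

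In the UGT1A cluster, which encodes UDP-glucuronosyltransferases, 2 domains split in the same way. The one with the starts of UGT1A6 and UGT1A5 (chr2:234593893-234624169) was 1 peak in each control and 3, 5 and 4 peaks with NRF2 siRNA, and covered length went from 27.8, 28.8 and 30.0 kb to 5.62, 10.4 and 14.1 kb. The one at UGT1A1 (chr2:234647855-234675977) was 1 peak in each control and 3, 4 and 4 with NRF2 siRNA, and covered length went from 27.2, 27.1 and 27.7 kb to 11.5, 9.77 and 15.3 kb. A domain in GPAT3, a glycerol-3-phosphate acyltransferase gene, was 1 peak of 21.9, 21.9 and 22.3 kb in the controls and 4 peaks in each NRF2 siRNA library, over 10.9, 12.7 and 14.8 kb. RAP1GAP, an activator of the RAP1 GTPase, went from 2, 1 and 1 peaks to 3 in each, and PECR with TMEM169 from 2, 4 and 3 to 7, 5 and 5. The ranges of peak numbers were separate at each of these domains, but their scores did not pass the threshold.

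The opposite pattern was clearest at DCBLD2, which encodes a transmembrane receptor-like protein (chr3:98588721-98628172). It was called in 4, 3 and 4 peaks in the controls and in 1 peak in each NRF2 siRNA library. Covered length nevertheless overlapped, at 23.5, 33.3 and 35.3 kb in the controls and 23.8, 35.2 and 38.6 kb with NRF2 siRNA. A domain in EGLN1, a prolyl hydroxylase of the hypoxia response, was called in 3, 2 and 3 peaks and then in 1 in each, and its covered length was 11.6, 4.95 and 5.45 kb in the controls and 14.6, 13.4 and 13.9 kb with NRF2 siRNA. PHLDA3 and a domain in ERGIC1 went from 3 peaks in each control to 2, 2 and 1.

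**Figure D5:**
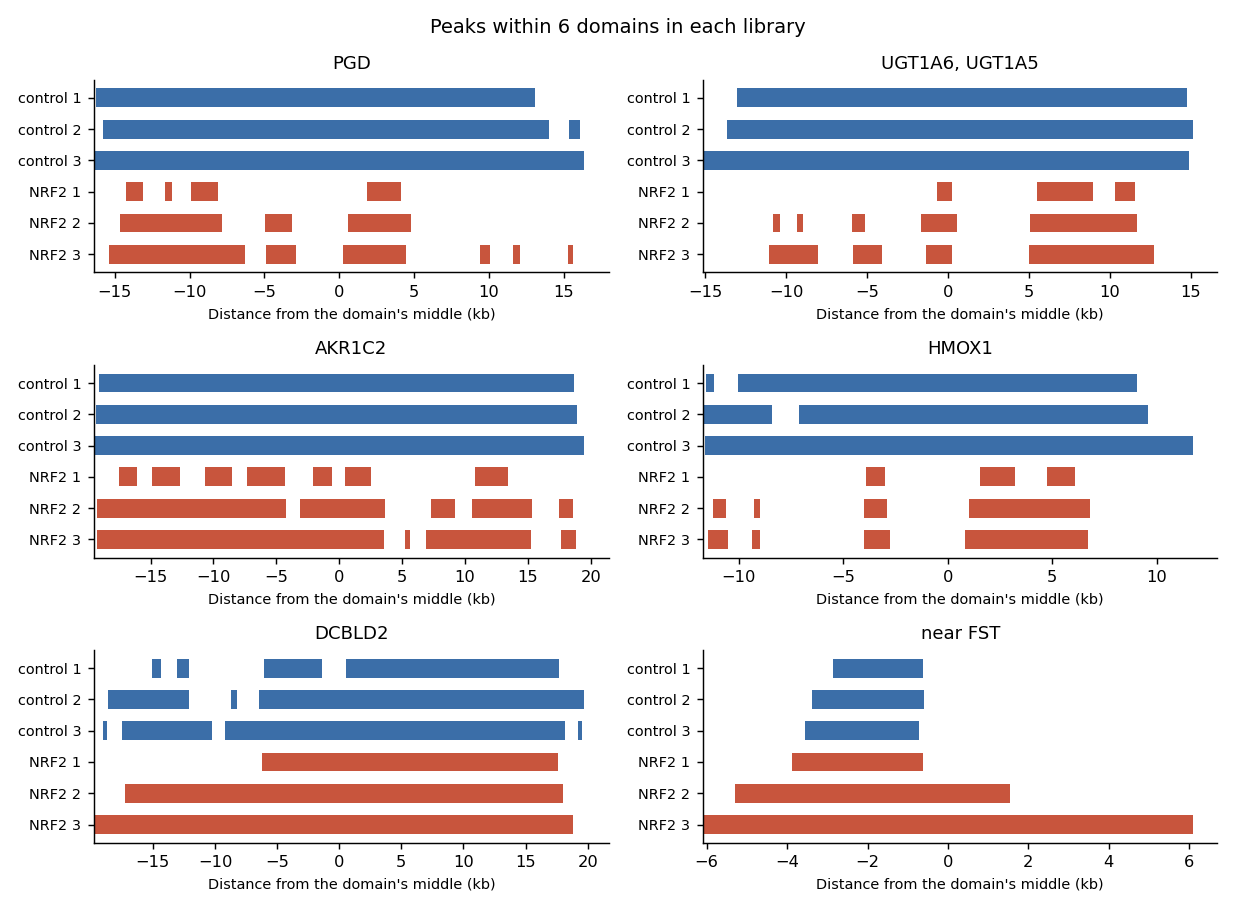
Peaks in 6 domains, drawn to scale as distance in kb from the middle of each domain, in the 3 control siRNA libraries (blue) and the 3 NRF2 siRNA libraries (red). AKR1C2 goes from 1 peak in each control to 7, 5 and 4, UGT1A6 from 1 to 3, 5 and 4, and DCBLD2 from 4, 3 and 4 to 1, while the domain near FST is longer in each NRF2 siRNA library.

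The bases that separated the groups in every library were a small part of the domains. Of the domain bases, 45.1% were under a peak in all 6 libraries, 1.27% (439 kb in 466 domains) in the 3 controls alone, and 0.144% (49.7 kb in 108 domains) in the 3 NRF2 siRNA libraries alone. The other 53.5% were under a peak in some other combination of libraries. They differed between libraries without separating the groups, so the small shares do not show that the rest was stable. In 120 domains the bases found in the controls alone came to 1 kb or more, and in 16 domains those found with NRF2 siRNA alone. The selection shaped these shares and counts, since 481 domains reached 10 kb only through the controls and 220 only through NRF2 siRNA. No matching share over all regions stands beside them, so they are no evidence on domains as a class. With pairs 2 and 3 only, 1106 kb were under a peak in both controls and in neither NRF2 siRNA library, and 421 kb the reverse. The domain with the most bases under a peak in the 3 controls alone held TM4SF20, a membrane protein gene named after its values were seen, with 17.3 kb. UGT1A6 followed with 13.0 kb, PGD with 12.2 kb, HMOX1 with 10.3 kb, UGT1A1 with 9.96 kb, the domain near AKR1C1 with 7.37 kb, the one near TKT with 7.31 kb and CPLX2 with 7.04 kb. A coding start lay in 1.53% of the segments found in the controls alone and in 14.3% of those found in all 6 libraries, but the former were also shorter, with a median of 314 bp compared with 2675 bp. Element matches occurred at 0.442 per kb (194 matches) in the former and at 0.433 per kb in the latter, and at 0.242 per kb (12 matches) in the segments found with NRF2 siRNA alone. The AP-1 site TGANTCA occurred at 0.366, 0.494 and 0.524 per kb and the C/EBP site TTGCNNAA at 0.555, 0.599 and 0.463 per kb, each counted on both strands.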

How the data were processed

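H3K27ac ChIP-seq peak lists of 6 A549 libraries were used (3 control siRNA, 3 NRF2 siRNA); the 2 input libraries were not analysed here. Per the labels and the submitters' processing notes, reads were trimmed with cutadapt 1.15, aligned to hg19 with Bowtie2 2.2.6, filtered on mapping quality, and broad peaks were called per library with MACS2 2.1.0.20151222. The deposited lists hold a score, a fold ratio over background, and −log10 p and q values for each peak. Of these the fold ratio deposited by the authors was used for ranks, and −log10 q for a stricter alternative. The lists (23885 to 41571 peaks) give no read counts. The study's reporting form gives fewer mapped reads for both libraries of replicate 1 than for the others, and slightly more for NRF2 siRNA than for control siRNA in replicate 1, whose list is the shorter.

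The members and the 11 gene lists were chosen with earlier results of these data known. Peaks were merged with Python 3.11.15. In each library the covered length of a region is the summed length of its peaks. The percentile is the rank of its highest fold among all peaks called there. For the score, regions called in 3 or more libraries were ranked per library (an uncalled region taking the lowest tied rank), and each rank was replaced by its quantile of the normal distribution. Scores and log2 covered lengths were compared with limma 3.58.1 (R 4.3.3, group as the only term, Benjamini-Hochberg over all regions, threshold 0.05). Deviations from the group mean were correlated between libraries of the same number (Pearson r 0.398, 0.199 and 0.363 for the score and 0.301, 0.183 and 0.349 for covered length across regions). The replicate number was therefore taken to pair them in the differences within pairs and in the replicate block, but not in the main fits. Tested on simulated data, the score fit recovered 65% of 200 regions shifted by 2 units and 0% of those shifted by 1, and the length fit 34% and 0% for log2 shifts of the same sizes. P-values measure the spread between these cultures of 1 line.

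Starts were taken from GENCODE transcripts in GRCh37 coordinates. A domain is called by the coding genes with a start in it, else by the gene it lies in or the nearest coding start. Peaks on sequences not in the genome used (136) were kept for ranks, without annotation. Named domains were the 10 widest, the 10 highest in percentile, the largest falls and rises in score, length and number of peaks, those at listed genes and those at the width limit. Values of a few listed genes are not reported here. Sequence motifs other than the response element were added after the data had been seen.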

Additional observations from a re-analysis of the deposited data

How the results depend on the processing

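Results were recomputed under the alternatives that apply to them, 1 choice at a time except for the replicate block together with equal list lengths. The number of domains lower in score, 30, became 56 with the replicate block, 47 with equal list lengths, 93 with both and 85 with a trended and robust variance, and it ranged from 0 to 32 with 1 library left out. The number higher, 2, became 18, 11, 46 and 34 under the same settings, 6 with q-values of at most 1e-05, 4 when ranked over the regions called in all 6 libraries, 10 with the length-weighted mean fold and 6 with pairs 2 and 3 only (chosen after seeing the data), and it ranged from 0 to 3 with 1 library left out. Of the canonical NRF2 target domains, 5 were lower in score, and 9, 8, 12 and 12 under the replicate block, equal lists, both and the trended variance, 10 with the length-weighted mean fold and 8 with pairs 2 and 3 only, with a range of 0 to 7 with 1 library left out. For covered length, 0 domains passed in either direction under every alternative run, the replicate block, pairs 2 and 3 only and each library left out included (0 to 0). The replicate block could be fitted only to the limma results.

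The count shorter in each NRF2 siRNA library, 172, was 455 with pairs 2 and 3 only and ranged from 174 to 529 with 1 library left out. The count longer, 14, was 26 with equal lists and 187 with pairs 2 and 3 only (15 to 179 with 1 left out). Domains in more peaks, 33, were 11 at the stricter q-value and 104 with pairs 2 and 3 only (33 to 119 with 1 left out), and domains in fewer peaks, 8, were 3 with equal lists and 72 with pairs 2 and 3 only (11 to 54 with 1 left out). The mean covered length difference, −1.66 kb, ranged from −3.23 to 0.257 kb with 1 library left out, and the mean difference in peaks, 0.154, from −0.0597 to 0.347. The canonical target domains shorter in each, 18, ranged from 18 to 19. The cause of these shifts was not tested, but fewer libraries make it easier by construction for groups to be separate.

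The 1928 domains became 1270 at a limit between 10 and 20 kb, 460 at 20 kb and 249 where each library had to hold 1 peak of 10 kb, and ranged from 1594 to 1946 with 1 library left out before merging. The share with a coding start was 45.0% at 20 kb or more. Response elements occurred at 0.433 per kb in the bases under a peak in all 6 libraries and at 0.102 per kb for the pattern read backwards, which contains a CG pair by construction. Of the named domains, the score change of TKT reversed without control siRNA replicate 3 and NRF2 siRNA replicate 2 (range with 1 library left out −0.165 to 0.102), that of the second ABCC3 domain without NRF2 siRNA replicate 1 (−0.0912 to 0.363), with pairs 2 and 3 only (−0.0965) and with the weighted mean fold (−0.248), and that of the first AKR1C3 domain without NRF2 siRNA replicate 2 (−0.0385 to 0.163) and with the weighted mean fold (−0.446). The log2 length change of the first ABCC3 domain reversed without control siRNA replicate 3 or NRF2 siRNA replicate 1 (−0.128 to 0.0757), with pairs 2 and 3 only (0.0117) and centred on the library median (0.0780), and that of the second TXNRD1 domain without NRF2 siRNA replicate 1 (−0.244 to 0.0631) and with pairs 2 and 3 only (0.0185). None of these had passed the threshold. Of the other score changes of named domains, 358 were on the same side of the threshold, 60 lost it and 51 gained it. Peak lists without read counts limit the precision of all of this.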
